A study of Mus musculus with 17 samples.

Results

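Transcripts of tryptophan breakdown and of nicotinamide use were followed in mouse liver through 10 genes, Tdo2, Ido2, Afmid, Kmo, Kynu, Haao, Acmsd, Qprt, Nampt and Nnmt. They were taken as a list of pathway enzymes, with every probe set that the array annotation maps to them alone. The list was chosen with earlier results of these data known, and was therefore not blind to their values. Of the 10 genes 9 had a probe set, 18 probe sets in all, among 18193 genes and 45037 probe sets on the array. The annotation used here maps none to Acmsd, so that gene has no value. A probe set is a group of short probes for 1 transcript, and a gene with several is represented by the one with the highest mean over all arrays.

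Total RNA was hybridised to 17 Affymetrix whole-genome mouse arrays in 4 groups. Wild type (Ahr+/+) males received corn oil (5 arrays) or the dioxin TCDD at 1000 µg/kg (6 arrays), and males without the aryl hydrocarbon receptor (Ahr-/-) received corn oil (3 arrays) or the same dose (3 arrays). TCDD was given 1 time by gavage in corn oil, and livers were taken 19 h later. All mice were C57BL/6J or on that background. The receptor is missing from the whole body of the knockout mice, and which part of the Ahr gene was deleted is unknown from the labels. Knockout mice were 10 weeks old and bought from a breeder, whereas the wild type mice, aged 15 weeks, came from a research institute's colony of the same stock, so genotype cannot be told apart from age and breeding site. The labels number the replicates without saying that each is a different mouse, and p-values therefore measure the spread between arrays, which may be partly technical.

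Most dietary tryptophan that is not built into protein is broken down in the liver through kynurenine. Tdo2 or Ido2 opens the ring, Afmid releases kynurenine, Kmo hydroxylates it, Kynu cleaves the product, and Haao forms the precursor of quinolinic acid. Acmsd diverts that precursor to full oxidation, whereas Qprt turns quinolinic acid toward NAD. Nampt recycles nicotinamide to NAD, and Nnmt methylates nicotinamide for excretion. Kynurenine and related tryptophan products are known ligands of the receptor, and TCDD is a ligand that the liver hardly breaks down.

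RefSeq promoter windows of mouse assembly GRCm38.p6, from 250 bases before a gene's start to 50 after it, were read for 7 of the 10 genes. They are given for Afmid, which fell most with TCDD and faces the gene Tk1, for Tdo2, which rose on part of its probe sets, and for Nampt, which holds the most matches of the core that the receptor binds. That core is GCGTG, searched on both strands (CACGC on the other), and matches are in capitals. The windows are at chr11:117825669-117825968, plus strand for Afmid, chr3:81975679-81975978, minus strand for Tdo2 and chr12:32820085-32820384, plus strand for Nampt, each printed 5′ to 3′ in the direction of its gene.
Afmid: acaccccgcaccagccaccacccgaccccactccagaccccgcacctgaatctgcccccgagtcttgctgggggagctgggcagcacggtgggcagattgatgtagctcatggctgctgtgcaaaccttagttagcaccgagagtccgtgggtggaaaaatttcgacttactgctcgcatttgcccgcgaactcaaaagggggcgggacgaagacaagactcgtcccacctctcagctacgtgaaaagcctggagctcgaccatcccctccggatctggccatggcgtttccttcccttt
Tdo2: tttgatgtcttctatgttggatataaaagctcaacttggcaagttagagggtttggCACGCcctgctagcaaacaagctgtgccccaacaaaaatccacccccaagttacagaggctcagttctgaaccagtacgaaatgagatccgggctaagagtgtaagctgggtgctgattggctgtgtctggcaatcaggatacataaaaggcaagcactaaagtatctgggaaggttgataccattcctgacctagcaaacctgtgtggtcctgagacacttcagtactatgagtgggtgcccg
Nampt: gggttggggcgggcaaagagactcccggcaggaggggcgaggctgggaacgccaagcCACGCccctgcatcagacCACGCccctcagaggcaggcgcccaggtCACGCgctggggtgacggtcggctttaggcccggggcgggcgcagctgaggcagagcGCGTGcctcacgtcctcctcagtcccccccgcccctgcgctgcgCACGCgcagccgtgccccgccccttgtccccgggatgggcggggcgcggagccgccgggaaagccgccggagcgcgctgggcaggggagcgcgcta

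The Afmid window holds no match, the Tdo2 window 1 and the Nampt window 5, none of them overlapping. The core is in 32.4% of all 32851 windows, and 0.463% hold 5 or more. That share is over windows of any base composition. The Nampt window is 76.3% G or C. The core contains CG, which occurs 36 times in the Nampt window, 18 times in that of Afmid and 4 times in that of Tdo2. How many matches base composition alone would give was not tested. Of the other windows read, Haao and Acmsd hold 1 match each and Kmo and Qprt none. The start of Tk1 lies 95 bases inside the Afmid transcript on the opposite strand, so that both transcripts overlap at their starts. The position of the probe sets relative to that overlap was not examined. A match in so short a window is a description of its letters and not of binding.

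Cyp1a1, the cytochrome that the receptor induces most, checked the dose. In wild type livers it read 4.98 to 6.95 without TCDD and 15.08 to 15.25 with it. Knockout livers given TCDD read 12.64, 5.32 and 5.34, so replicate 1 of that group stood apart. Cyp1a2, also a check of the dose, read 13.27 on that array and 11.7 and 11.2 on the other dosed knockout arrays. Undosed wild type livers read 13.22 to 13.37 for Cyp1a2. Undosed knockout livers read 11.28 to 11.45 for Cyp1a2 and 5.81 to 7.18 for Cyp1a1. Some of the differences that use replicate 1 are also given without it. Among wild type livers given TCDD, replicate 6 also differed from the rest, with a residual SD of 0.319 against 0.124 to 0.173 on the other 16 arrays and a gap of 1.98 between the 3′ and 5′ probe sets of Gapdh (others -0.165 to -0.0112). Scans were spread over 3 days. No dosed knockout array was scanned on day 1, and day 3 held 1 dosed knockout and 1 undosed wild type array. Values are log2 levels with array medians of 3.08 to 3.19, levels near which carry little signal, and the number of arrays limits the precision.

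TCDD lowered transcripts of 3 of the 9 measured genes in wild type livers and raised none by its representative probe set. Those that fell were Afmid, Kynu and Qprt. Over all genes 2.56% fell and 3.75% rose at an adjusted p under 0.05, the threshold used throughout. The median log2 difference of the 9 genes was -0.36, against 0.01 over all genes. In these tissue samples fewer cells of a type and less RNA per cell cannot be told apart. In knockout livers none of the 9 passed limma's test, as against 0.011% of all genes. None of the 9 had an unadjusted p under 0.05 there, and 3.28% of all genes did. Without replicate 1 of the knockout TCDD group none passed either, with differences of 0.03 for Afmid, 0.04 for Kynu and -0.18 for Nnmt. In livers given corn oil Kynu and Nnmt were higher without the receptor, 2 of 9, while 1.4% of all genes were higher and 0.934% lower. The knockout and TCDD comparisons in wild type share the corn oil arrays of wild type mice.

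**Figure D1:**
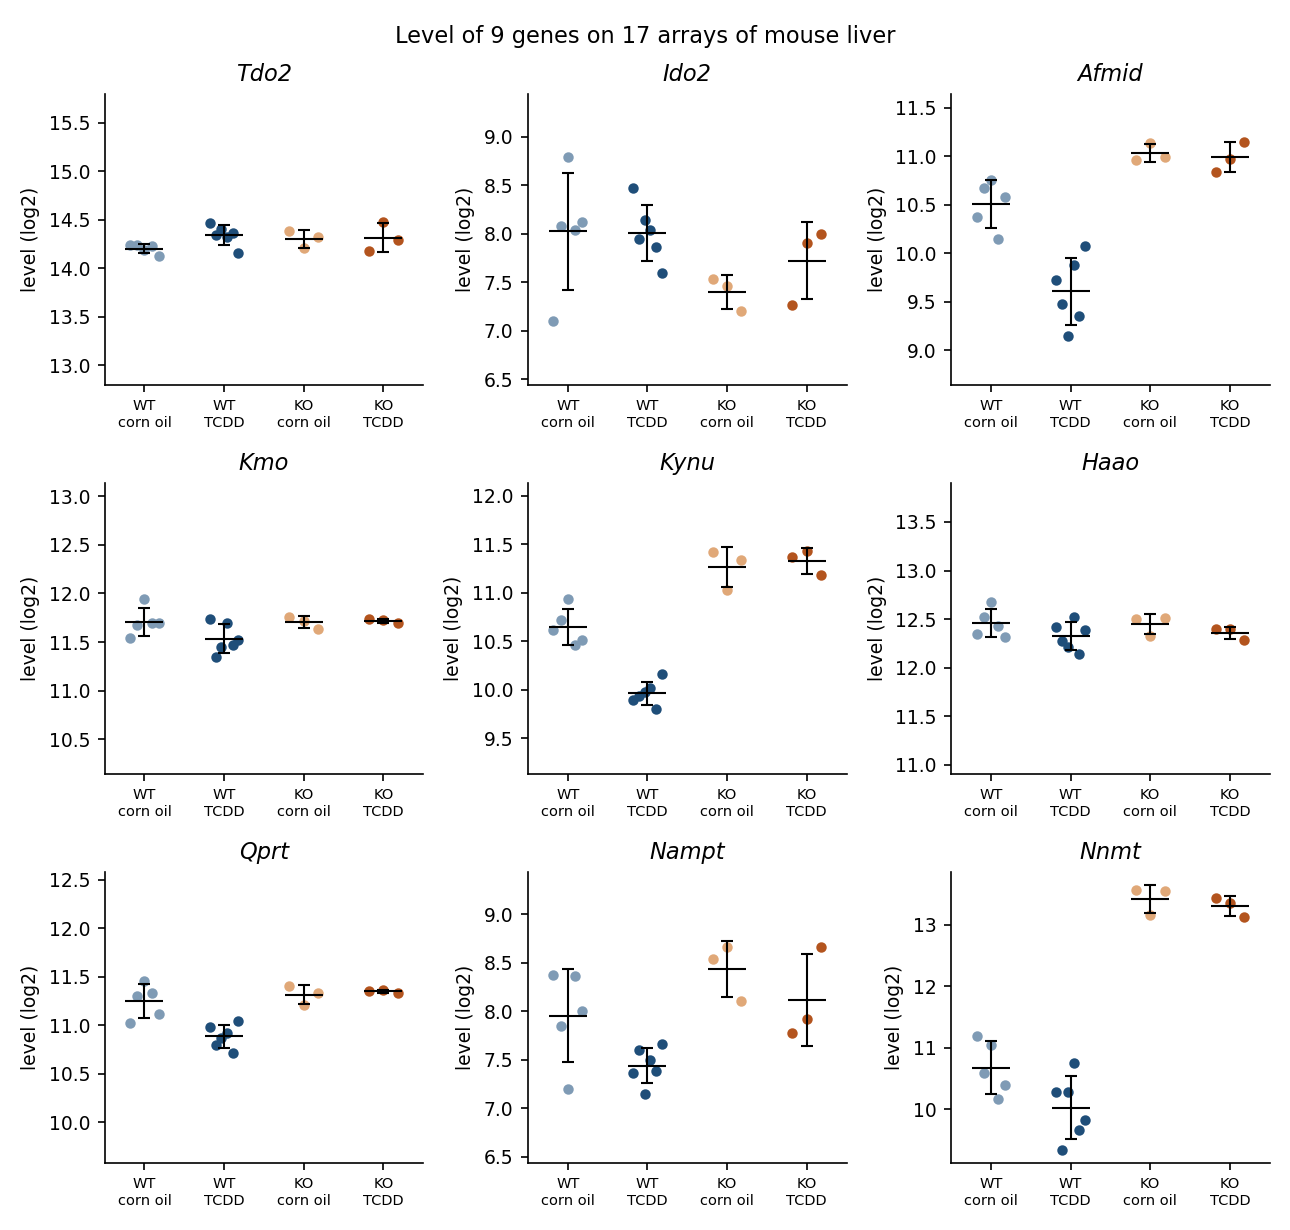
Level of each measured gene (log2, vertical axes of at least 3 units) by its representative probe set on 17 arrays. Points are arrays, and bars are the group mean and SD (n = 5, 6, 3 and 3). Afmid and Kynu have their 6 wild type TCDD arrays below all others, and the 6 knockout arrays of Nnmt lie above all 11 wild type arrays.

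Afmid, the formamidase that releases kynurenine, had the largest fall among the 9 genes. In wild type livers given corn oil the representative probe set read 10.37, 10.67, 10.75, 10.14 and 10.58, and with TCDD it ran from 9.14 through a median of 9.60 to 10.07. Knockout livers read 10.96, 11.14 and 10.99 with corn oil and 10.84, 10.97 and 11.15 with TCDD. The dosed wild type arrays were thus all below the undosed ones, and the 6 knockout arrays were above all wild type arrays. The difference with TCDD in wild type was -0.90 ± 0.15 (log2, SE), or 1.86-fold lower (adjusted p = 0.00292), and in knockout it was -0.04 ± 0.21 (adjusted p = 0.950).

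A second probe set of Afmid gave the same order with less spread. Its values with corn oil in wild type were 9.05, 9.24, 9.48, 8.87 and 9.26, those with TCDD 8.03 to 8.31 with a median of 8.16, and those of knockout livers 10.12, 10.14 and 10.09 with corn oil and 9.95, 9.84 and 10.11 with TCDD. No 2 of wild type corn oil, wild type TCDD and knockout overlapped. It fell 2.02-fold with TCDD in wild type (-1.01 ± 0.09, adjusted p = 1.39e-05) and was 1.91-fold higher in knockout than in wild type livers given corn oil (0.94 ± 0.11, adjusted p = 0.000478). The representative probe set differed by 0.53 ± 0.19 in that last comparison and did not pass (adjusted p = 0.289), whereas the mean of the 4 probe sets did (0.44, adjusted p = 0.0400). The TCDD effects of the genotypes differed by 0.86 ± 0.16 on the second probe set (adjusted p = 0.0151, and 0.0534 without replicate 3 of the knockout TCDD group) and by 0.85 ± 0.26 on the first (adjusted p = 0.215). With scan day as a block the difference on the second probe set was 0.77 (adjusted p = 0.148). Another probe set of lower level differed by -0.54 ± 0.23 with TCDD in wild type (adjusted p = 0.348), and the dimmest read 3.17 to 3.55 on all wild type arrays, near the array medians.

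Tk1, the thymidine kinase gene that faces Afmid, had the same order of groups. In wild type its level was 7.01 ± 0.11 with corn oil (SD, n = 5) and 5.09 ± 0.31 with TCDD (n = 6), and it was 7.80 ± 0.14 (n = 3) in undosed and 7.79 ± 0.30 (n = 3) in dosed knockout livers. Tk1 fell by 1.92 ± 0.14 with TCDD in wild type (3.79-fold, adjusted p = 1.19e-06), its TCDD effects differed between genotypes by 1.92 ± 0.24 (adjusted p = 0.000694), and in knockout it differed by 0.00 ± 0.19. It was higher by 0.78 ± 0.17 in knockout livers given corn oil (adjusted p = 0.0331), a call lost without any 1 of 7 arrays (adjusted p up to 0.136), with scan day as a block (0.70, adjusted p = 0.137) and with quantile normalization. Over the 17 arrays Tk1 ranked 5 among all genes by Pearson correlation with Afmid (r = 0.948). Fads1 (0.962), Suox (0.957), Sdc1 (0.950) and Gldc (0.950) came before it, and all of these values rest on the same arrays and on the difference between the 4 groups.

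**Figure D2:**
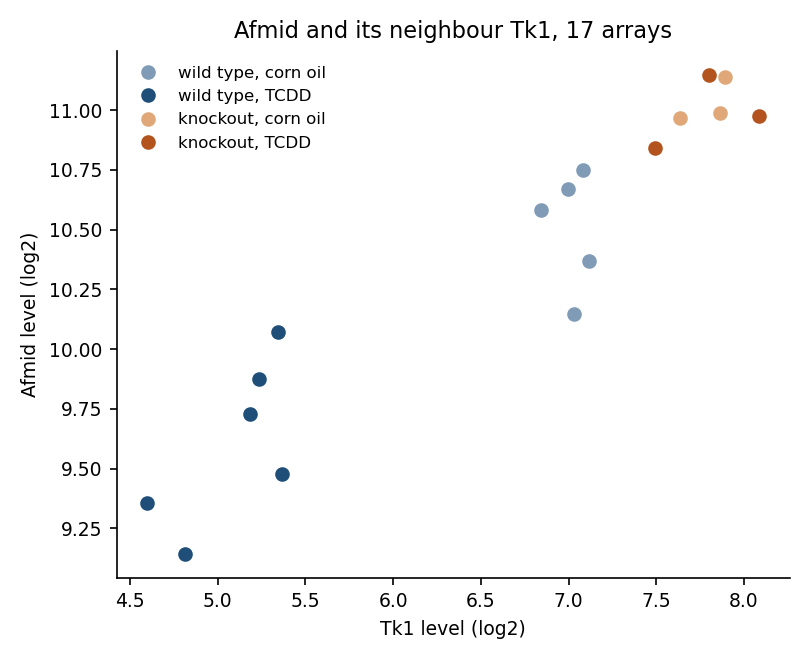
Levels (log2) of Afmid and of Tk1, its head-to-head neighbour, on each of 17 arrays, coloured by group. The wild type TCDD arrays form the low end for both genes (Tk1 4.60 to 5.36, Afmid 9.14 to 10.07), and the 6 knockout arrays form the high end.

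Kynu, the kynureninase that cleaves kynurenine and hydroxykynurenine, also fell with TCDD. Its values in wild type livers given corn oil were 10.61, 10.72, 10.93, 10.46 and 10.52, and those with TCDD ran from 9.80 through 9.95 to 10.16. Knockout livers read 11.42, 11.03 and 11.33 with corn oil and 11.37, 11.43 and 11.18 with TCDD. All dosed wild type arrays lay below the undosed ones, and all knockout arrays lay above both. Kynu fell 1.61-fold with TCDD in wild type (-0.68 ± 0.09, adjusted p = 0.000454) and differed by 0.06 ± 0.13 in knockout (adjusted p = 0.881). With corn oil it was 1.53-fold higher in knockout livers (0.62 ± 0.11, adjusted p = 0.0115). That call ended without replicate 1 or 3 of the knockout corn oil group (adjusted p up to 0.0825), and with only those groups in the fit (adjusted p = 0.122). It was 0.61 on scan day 1 and 0.63 on day 2, and 0.62 with scan day as a block (adjusted p = 0.0257).

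Kynu was the only one of the 9 genes whose representative probe set passed the test of unequal TCDD effects, with a difference of 0.75 ± 0.16 (knockout minus wild type, adjusted p = 0.0336). At that threshold 0.385% of all genes passed in this direction and 1.25% in the other. Without each of the 17 arrays in turn the difference was 0.63 to 0.83. The call was lost without any 1 of 11 of them (adjusted p up to 0.103), among them replicate 1 of the knockout TCDD group (0.72, adjusted p = 0.0784). It was lost as well with scan day as a block (0.79, adjusted p = 0.0914). A second probe set of Kynu read 2.65 to 2.98 on all arrays, below every array median, and showed no difference past the test. The genes most like Kynu over the 17 arrays were Gas2 (r = 0.978), Hgd (0.972), Asl (0.968), Sdc1 (0.967) and Fads1 (0.965), a list that shares Sdc1 and Fads1 with that of Afmid.

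Qprt, the phosphoribosyltransferase that joins the pathway to NAD synthesis, fell less. Its representative probe set read 11.02, 11.30, 11.46, 11.34 and 11.12 with corn oil in wild type, and 10.71 to 11.04 with a median of 10.90 with TCDD. Knockout livers read 11.40, 11.21 and 11.34 with corn oil and 11.35, 11.37 and 11.34 with TCDD. The wild type groups overlapped only between the lowest corn oil array (11.02) and the highest TCDD array (11.04). Qprt fell 1.28-fold (-0.36 ± 0.07, adjusted p = 0.0115) in wild type and differed by 0.04 ± 0.10 in knockout (adjusted p = 0.913), and the difference between these effects did not pass (0.40 ± 0.13, adjusted p = 0.252). Its second probe set gave -0.24 ± 0.11 in wild type, which did not pass (adjusted p = 0.395), and the mean of both gave -0.30 (adjusted p = 0.0635). With only the wild type arrays in the fit the adjusted p of the representative probe set was 0.0506.

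**Figure D3:**
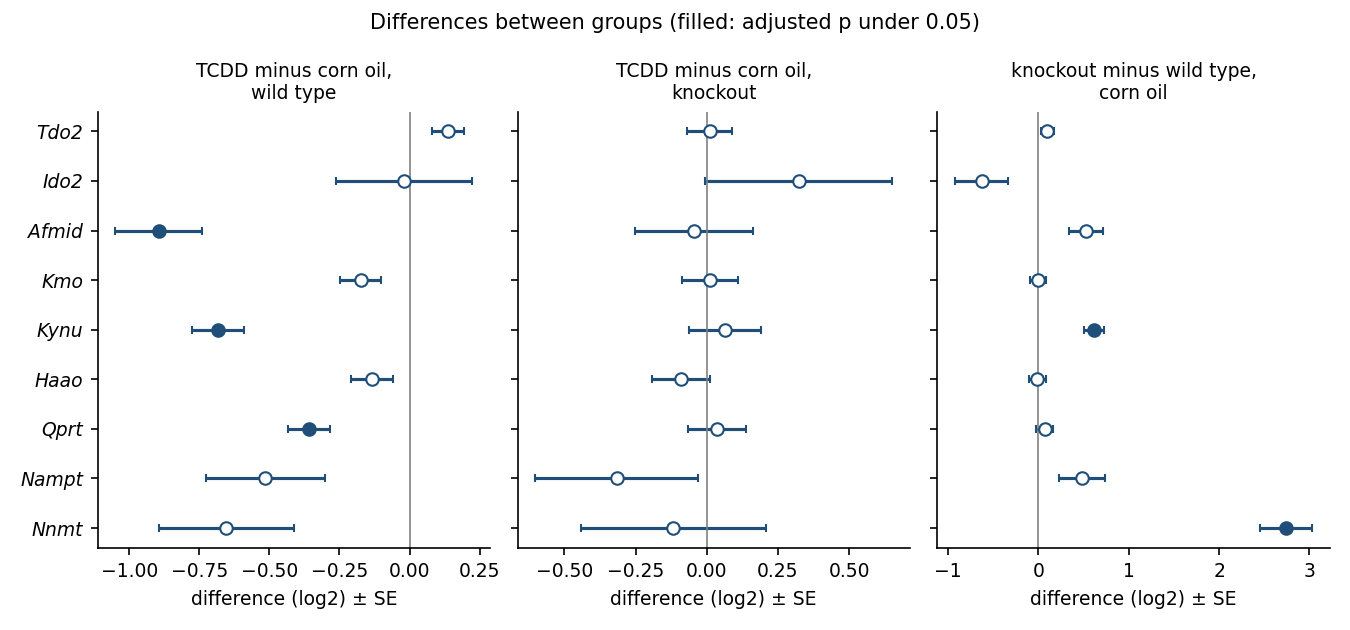
Difference (log2, ± SE) of each measured gene by its representative probe set for TCDD in wild type, TCDD in knockout and knockout against wild type with corn oil. Filled points passed at an adjusted p under 0.05, which are Afmid, Kynu and Qprt on the left, none in the middle, and Kynu and Nnmt on the right; the horizontal scales differ.

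The ring-opening step went the other way on part of its probe sets. Tdo2, the tryptophan dioxygenase of hepatocytes, has 3 probe sets, and the brightest read 14.13 to 14.46 in wild type livers. It differed by 0.14 ± 0.06 with TCDD in wild type and did not pass (adjusted p = 0.325). The dimmest read 11.72, 11.98, 12.29, 12.11 and 12.13 with corn oil and 12.49 to 12.69 with TCDD, with a median of 12.57. Every dosed array was above every undosed one. This probe set rose 1.46-fold (0.55 ± 0.11, adjusted p = 0.0113), and the middle one rose 1.37-fold (0.45 ± 0.11, adjusted p = 0.0352).

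The dosed arrays of the middle Tdo2 probe set overlapped the others through replicate 6, which read 12.55 where the other 5 read 12.98 to 13.10. Without that array its difference was 0.54 ± 0.09 (adjusted p = 0.00457), that of the dimmest was 0.57 (adjusted p = 0.0170) and that of the brightest 0.18 (adjusted p = 0.0899). The call of the middle probe set was lost without any 1 of 9 other arrays (adjusted p up to 0.0978), with scan day as a block (0.47, adjusted p = 0.0633), with quantile normalization (0.43, adjusted p = 0.0535) and with median centring (0.44, adjusted p = 0.0776). The mean of the 3 probe sets differed by 0.38 (adjusted p = 0.0133). In knockout livers the 3 probe sets differed by 0.01 ± 0.08, -0.03 ± 0.15 and 0.08 ± 0.15, from the brightest to the dimmest, and without replicate 1 of the TCDD group by 0.08, 0.07 and 0.21. None of these passed (adjusted p 0.878 to 0.971 with all arrays), and the difference of effects did not pass for any (adjusted p 0.465 to 0.631).

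Ido2, the second dioxygenase of liver, did not pass in any comparison. It read 7.10 to 8.79 with corn oil and 7.59 to 8.47 with TCDD in wild type, a difference of -0.02 ± 0.24. Its knockout arrays read 7.53, 7.46 and 7.20 with corn oil and 7.27, 7.90 and 7.998 with TCDD. They lay within the range of the wild type arrays. The TCDD difference in knockout was 0.32 ± 0.33, and 0.55 without replicate 1. The sign of its TCDD difference in wild type turned under quantile normalization, array weights, scan day or replicate blocks, within day 1 and without some single arrays. Kmo, the hydroxylase between Afmid and Kynu, read 11.54 to 11.94 with corn oil and 11.35 to 11.74 with TCDD in wild type (-0.17 ± 0.07, adjusted p = 0.330), and 11.64 to 11.76 in all knockout livers. Haao, the dioxygenase after Kynu, read 12.31 to 12.67 and 12.14 to 12.53 (-0.13 ± 0.08, adjusted p = 0.651), and 12.29 to 12.51 in knockout livers. The groups overlapped for all 3 genes.

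Within both scan days that held wild type arrays of each treatment, Afmid, Kynu and Qprt were lower with TCDD. On day 1 (2 dosed wild type arrays against 1) the differences were -0.77 for Afmid, -0.70 for Kynu and -0.13 for Qprt, and on day 2 (4 against 3) they were -0.91, -0.71 and -0.48. Kynu and Qprt passed on day 2 (adjusted p = 0.0497 and 0.0402), and none passed on day 1. The dimmest Tdo2 probe set differed by 0.90 on day 1 and 0.45 on day 2. With scan day as a block Afmid, Kynu and Qprt passed (adjusted p = 0.0122, 0.000740 and 0.0163). Their calls held without replicate 6 of the TCDD group (-0.99, -0.72 and -0.39) and without each other array in turn.

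Nnmt, the methyltransferase that clears nicotinamide, had the largest difference between genotypes. Its values in wild type livers given corn oil were 11.20, 10.60, 11.05, 10.16 and 10.39, and those of knockout livers were 13.56, 13.15 and 13.54. With TCDD the wild type arrays ran from 9.35 through 10.05 to 10.76, and the knockout arrays read 13.44, 13.34 and 13.12. All knockout arrays were above all wild type arrays with either treatment. With corn oil Nnmt was 6.67-fold higher in knockout livers (2.74 ± 0.29, adjusted p = 0.000135). The difference was 2.61 to 2.87 without each array in turn, and the call held each time. It was 2.16 on day 1 (adjusted p = 0.340), 2.94 on day 2 (adjusted p = 0.0371) and 2.69 with scan day as a block (adjusted p = 0.00152).

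Nnmt did not pass with TCDD in either genotype. The difference was -0.65 ± 0.24 in wild type (adjusted p = 0.215) and -0.12 ± 0.32 in knockout (adjusted p = 0.913), and the effects differed by 0.54 ± 0.40 (adjusted p = 0.631). The genes whose levels were most like those of Nnmt over the 17 arrays were Etnppl (r = 0.980), Slc25a15 (0.979), Mbl2 (0.976), Zap70 (0.973) and Fh1 (0.971). Each differed in the same direction between genotypes, by 0.61 to 1.47, and the correlations rest on the same arrays.

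Nampt, the enzyme that recycles nicotinamide, gave a divided picture over its 3 probe sets. The representative one read 8.37, 7.85, 7.20, 8.36 and 8.004 in wild type and 8.54, 8.66 and 8.11 in knockout livers given corn oil, which overlap (0.48 ± 0.25, adjusted p = 0.718). A second read 6.95, 7.24, 6.59, 7.62 and 7.42 against 8.41, 8.65 and 8.12, with all knockout arrays above, and was 2.35-fold higher (1.23 ± 0.23, adjusted p = 0.0138). That call was lost without replicate 1 or 2 of the knockout corn oil group (adjusted p up to 0.0788). The difference was 1.09 to 1.37 without each of the 17 arrays in turn. It was 1.58 on day 1, 0.97 on day 2 and 1.34 with scan day as a block (adjusted p = 0.0151). The dimmest read 3.01 to 4.01 with corn oil, near the array medians (0.57 ± 0.16, adjusted p = 0.107). By the mean of the 3 probe sets Nampt passed between genotypes (0.76, adjusted p = 0.0404).

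With TCDD the representative probe set of Nampt read 7.15 to 7.66 in wild type livers, with a median of 7.44. The difference was -0.51 ± 0.21 (adjusted p = 0.310), and it passed only without replicate 3 of the corn oil group (-0.70, adjusted p = 0.0452), which at 7.20 was its lowest array. Knockout arrays with TCDD read 7.78, 7.92 and 8.66 (-0.32 ± 0.29, adjusted p = 0.875), and without replicate 1 the difference was -0.14. The second probe set differed by -0.54 ± 0.26 there (adjusted p = 0.875), and by -0.32 without that array. Nampt lies on chromosome 12 like Ahr, with 10 protein-coding genes between them in RefSeq order, all measured. None of these 10 passed between genotypes by limma, and 2 had an unadjusted p under 0.05, as did 11.5% of all genes. Only the representative probe set of each was counted. Efcab10, Ferd3l, Twist1 and Prps1l1 had means of 2.14 to 2.86 with corn oil in either genotype, below every array median. Hdac9 (3.43 in wild type) and Cdhr3 (3.94) were not far above the medians, and levels this low carry little signal. The nearest to passing was Twistnb (0.33 ± 0.08, adjusted p = 0.0638), named here after its values were seen. 

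**Figure D4:**
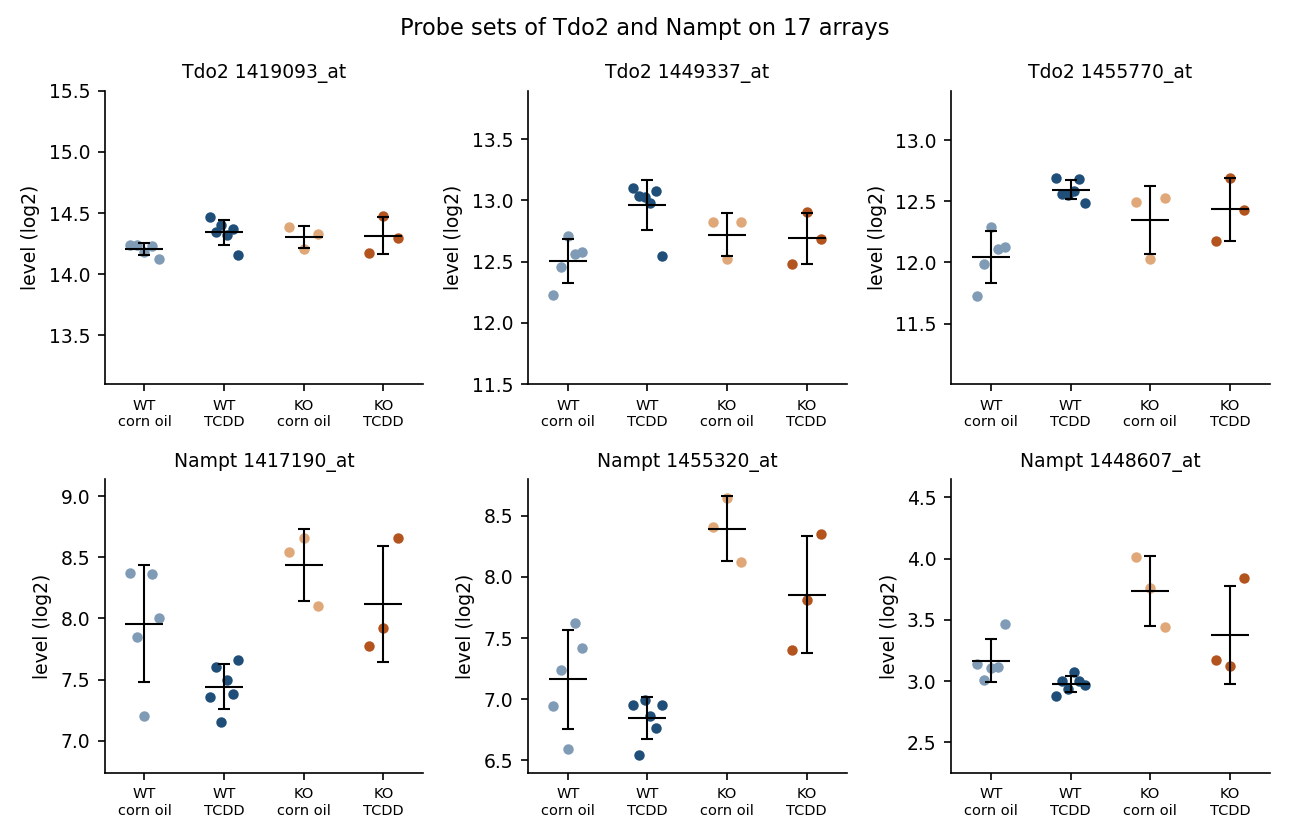
The 3 probe sets of Tdo2 (top) and of Nampt (bottom) on 17 arrays (log2, vertical axes of at least 2.4 units, ordered from the brightest to the dimmest). Points are arrays, and bars are the group mean and SD (n = 5, 6, 3 and 3). The wild type TCDD arrays stand above the corn oil arrays on the dimmest Tdo2 probe set, and the knockout corn oil arrays stand above the wild type ones on the middle Nampt probe set.

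By array ranges alone, 2 of the 9 genes had wild type groups that did not overlap with TCDD (Afmid and Kynu, both lower) and 3 had genotypes that did not overlap with corn oil (Afmid, Kynu and Nnmt, all higher in knockout). Over all genes 5.86% and 8.28% did not overlap, in either direction. Afmid and Kynu therefore had 1 order of groups, with wild type TCDD lowest, wild type corn oil next and both knockout groups highest. For Qprt the means were 11.25 ± 0.17 (SD) in wild type with corn oil, 11.32 ± 0.10 in knockout with corn oil, 11.35 ± 0.02 in knockout with TCDD and 10.89 ± 0.12 in wild type with TCDD, the lowest.

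Around these steps, 16 genes of other tryptophan and kynurenine branches and of amino acid transport were measured, of which 1 rose and 2 fell with TCDD in wild type. Their median difference was -0.04. Among all genes 3.75% rose and 2.56% fell. Kyat1, an aminotransferase that makes kynurenic acid, fell by 0.56 ± 0.07 (adjusted p = 0.000117). Slc16a10, a transporter of aromatic amino acids, fell by 1.30 ± 0.20 from 9.11 to 7.81 (adjusted p = 0.00116). Slc3a2, the heavy chain of large amino acid transporters, rose by 0.41 ± 0.06 (adjusted p = 0.00139).

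For Slc16a10 and Slc3a2 the TCDD effect also differed between genotypes, by 1.63 ± 0.34 and -0.50 ± 0.11 (adjusted p = 0.0314 and 0.0389). These differences lost their call without any 1 of 7 and 13 arrays. With scan day as a block that of Slc3a2 was -0.36 and did not pass (adjusted p = 0.299). Ido1, the dioxygenase of immune cells, and Tph1, which opens the serotonin branch, read 2.46 and 2.62 in wild type livers given corn oil, below every array median. In the same livers Slc7a5 read 3.04, also below every median. Slc7a8 and Slc6a19 read 3.16 and 3.25, near the medians. None of the 16 genes passed between genotypes by limma, and 3 had an unadjusted p under 0.05 (11.5% of all genes did).

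Of 13 measured genes of NAD salvage, transport and phosphorylation, 1 rose and 1 fell with TCDD in wild type, with a median of 0.00. The shares over all genes were 3.75% and 2.56%. The median of the 13 was the value of Nmrk2, which read 2.08 in wild type livers given corn oil. That level and the 1.89 of Slc22a13 lay below every array median, so the median says little about the genes with more signal. Naprt, which uses nicotinic acid, rose by 0.52 ± 0.07 from 10.20 to 10.73 (adjusted p = 0.000285), and its effects differed between genotypes by -0.54 ± 0.11 (adjusted p = 0.0348, lost without any 1 of 14 arrays and with other centring or scaling, and 0.222 with scan day as a block). Nadk2, the mitochondrial NAD kinase, fell by 0.25 ± 0.05 (adjusted p = 0.0100). Between genotypes 2 were higher and 1 lower in knockout livers given corn oil, against 1.4% and 0.934% of all genes. Slc25a51, the mitochondrial NAD carrier, was higher by 1.33 ± 0.21, from 9.07 to 10.39 (adjusted p = 0.00431). Nadk, the cytosolic kinase, was higher by 0.34 ± 0.06 (adjusted p = 0.00861, lost without replicate 2 of the knockout corn oil group). Pnp, a purine nucleoside phosphorylase, was lower by -0.50 ± 0.11 (adjusted p = 0.0378, lost without any 1 of 10 arrays). Without replicate 6 of the wild type TCDD group 2 of the 13 fell with TCDD and 3 were higher in knockout.

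Of 7 measured genes of nicotinamide methylation, oxidation and methyl donor supply, 2 fell with TCDD in wild type. In knockout livers given corn oil 3 were higher and 1 lower. Of all genes 2.56% fell with TCDD, and 1.4% were higher and 0.934% lower in knockout. Mat1a, which makes the methyl donor S-adenosylmethionine, fell by 0.53 ± 0.11 with TCDD (adjusted p = 0.0106) and was higher by 0.81 ± 0.13 in knockout (adjusted p = 0.00518). Gnmt, the glycine methyltransferase that uses up the same donor, fell by 0.26 ± 0.04 (adjusted p = 0.00151) and was higher by 0.34 ± 0.05 (adjusted p = 0.00177). Ahcy, which clears the demethylated product, was higher in knockout by 0.23 ± 0.05 (adjusted p = 0.0204, lost without any 1 of 3 arrays, and 0.0874 with scan day as a block). Aox3, an aldehyde oxidase, was lower by -0.78 ± 0.12, from 13.19 to 12.41 (adjusted p = 0.00289). The medians of this list were -0.11 for TCDD and -0.05 for genotype.

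Of 14 measured NAD-consuming enzymes 1 rose and 2 fell with TCDD in wild type, with a median of 0.05, and none passed between genotypes by limma, where 1 had an unadjusted p under 0.05 (11.5% of all genes did). The rise was that of Tiparp, an ADP-ribosyltransferase that the receptor induces, from 4.72 ± 0.48 to 10.50 ± 0.40. Among all genes 3.75% rose and 2.56% fell with TCDD. Sirt6, Bst1 and Sarm1 read 1.90, 2.66 and 2.74 in wild type livers given corn oil, below every array median. The sirtuins Sirt3 and Sirt7 fell by 0.30 ± 0.07 and 0.29 ± 0.06 (adjusted p = 0.0266 and 0.0112), the former lost without any 1 of 4 arrays and with scan day as a block (adjusted p = 0.0614). In knockout livers none of the genes in these 4 lists passed with TCDD by limma or had an unadjusted p under 0.05.

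**Figure D5:**
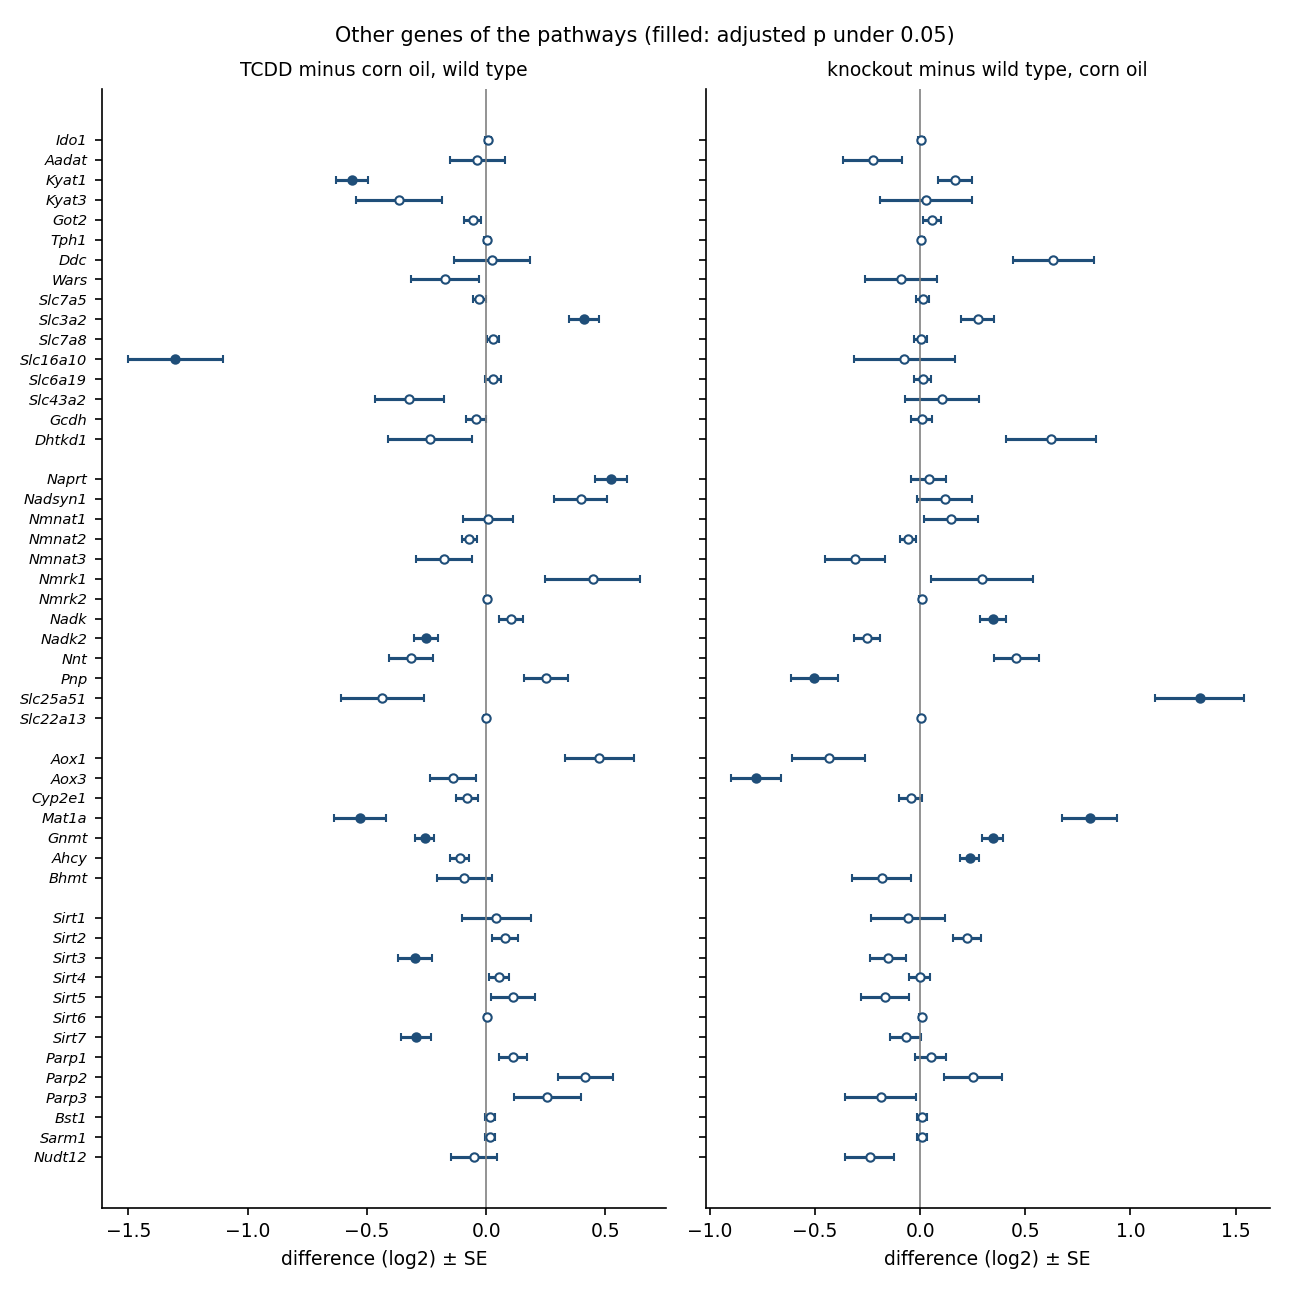
Difference (log2, ± SE) of the other measured genes of tryptophan branches and transport, NAD salvage, nicotinamide methylation and oxidation, and NAD consumption, from top to bottom, with TCDD in wild type (left) and between genotypes with corn oil (right). Filled points passed at an adjusted p under 0.05; Tiparp, whose rise from 4.72 to 10.50 lies off this scale, is left out.

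Markers of liver cell types gave the setting of these values. All 9 measured hepatocyte markers were well above the array medians, and 5 of them fell with TCDD in wild type, by 0.09 to 0.27 (Cps1). Their summed level was 18.19 to 18.25 with corn oil and 18.08 to 18.14 with TCDD (log2). Of all genes 2.56% fell with TCDD in wild type. Of 7 endothelial markers Stab2 and Clec4g fell (summed level 10.71 to 10.91 against 10.35 to 10.53), and of 7 stellate cell and fibroblast markers Rgs5 fell (11.26 to 11.86 against 11.44 to 11.76). None of 8 Kupffer cell, 5 dendritic cell and monocyte, 5 lymphocyte, 3 neutrophil, 5 bile duct or 4 kidney markers passed any limma comparison. In 1 comparison 1 neutrophil marker had an unadjusted p under 0.05. All 5 dendritic cell and monocyte markers were below the highest array median, where levels carry little signal. So were 4 lymphocyte, 2 neutrophil, 2 bile duct and 2 kidney markers. Between genotypes Ahsg (hepatocytes), Lyve1 (endothelium) and Rgs5 were higher in knockout with corn oil, Lyve1 not without replicate 6 of the wild type TCDD group. The summed hepatocyte level there was 18.31 to 18.36. The part of these shifts in the values of the 9 genes was not tested.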

How the data were processed

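The values were deposited on a log2 scale for each array and probe set, already summarised by the authors, per the file's range of values. RMA, GCRMA and affy 1.5.8 appear in the submitters' processing notes; which method produced the table is not stated there. Normalization across arrays hides a change shared by most genes. Of 45101 probe sets 64 controls were left out. By the array annotation 34945 named 1 gene, 932 several and 9160 none, and 34741 matched the RefSeq table of GRCm38.p6 by Entrez ID.

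limma 3.58.1 (R 4.3.3) estimated the mean of each of 4 groups over the 17 arrays together (eBayes after lmFit, 13 residual and 1 prior degrees of freedom, no filter on level), with Benjamini-Hochberg adjustment over 45037 probe sets, two-sided. The fit was tested on simulated data. No 2 arrays were alike enough to be 1 sample (lowest SD of a difference, 0.180). Scan day and fluidics module came from the scan settings.

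The members and lists were chosen with earlier results of these data known. Named besides the members are up to 4 called genes with the largest difference per list and comparison, the 5 genes most correlated with the called member of largest difference in each comparison, and Tk1 as the neighbour of Afmid, chosen after its values were seen. Alternatives were other normalizations, array weights, a filter, priors, blocks, single scan days, fewer arrays or groups, and the mean of a gene's probe sets.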

Additional observations from a re-analysis of the deposited data

Results flagged for a closer look

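With all arrays and no block, the effect of TCDD differed between the genotypes, by the test of the difference itself, for Kynu (0.75 ± 0.16 on the log2 scale, knockout minus wild type, adjusted p = 0.0336) and for the second probe set of Afmid (0.86 ± 0.16, adjusted p = 0.0151). Neither passed with scan day as a block (adjusted p = 0.0914 and 0.148) or with the replicate block (0.0849 and 0.0694). The call of Kynu was also lost without any 1 of 11 arrays, and that of Afmid without replicate 3 of the knockout TCDD group. Wild type replicate 6 with TCDD, whose RNA control probe sets also stood apart, was far from its group on 3 probe sets. It was the lowest of the middle Tdo2 probe set at 12.55 (others 12.98 to 13.10), the highest of the dimmest Afmid probe set at 3.55 (others 3.17 to 3.24) and the highest of the dimmest Kynu probe set at 2.92 (others 2.65 to 2.75). The test was made on 36 sets of arrays, and chance flags about 1 in 20. The part of RNA quality in these values was not tested.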

How the results depend on the processing

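Counts of the 9 genes called were 3 for wild type TCDD, 0 for knockout TCDD, 2 for genotype and 1 for the difference of effects. The first was 0 within scan day 1, where 1 corn oil array remained, 2 within day 2 and with only the groups compared, and 3 to 4 leaving out each array (4 without wild type corn oil replicate 3). The count for genotype was 1 with the replicate block, 1 with only the groups compared, 0 within day 1, 1 within day 2, 4 with the mean of a gene's probe sets, and 1 to 2 leaving out each array. The count for the difference of effects was 3 with array weights, and 0 with scan day as a block, with the replicate block, within day 2 and with the mean of a gene's probe sets, and 0 to 1 leaving out each array. A lone array within a day was assumed to vary like the others, and the mean over probe sets dilutes Kynu with a dim one. For wild type TCDD that mean kept the count at 3. Qprt no longer passed by it (-0.30, adjusted p = 0.0635), and Tdo2 passed as a rise (0.38, adjusted p = 0.0133). For genotype it added Afmid (0.44, adjusted p = 0.0400) and Nampt (0.76, adjusted p = 0.0404). Arrays with the same replicate number did not deviate together more than others did. Their correlations were -0.269 to 0.135 over 20 pairs, against -0.327 to 0.428 over 85 pairs with different numbers. These pairs include arrays of different genotypes, so the check cannot exclude that the numbers pair some arrays. With the replicate block Kynu differed by 0.56 between genotypes (adjusted p = 0.101) and by 0.79 in the difference of effects (adjusted p = 0.0849), and Afmid, Kynu and Qprt passed for TCDD in wild type. The replicate block also ended the calls of the dimmest Tdo2 probe set (TCDD, adjusted p = 0.0626), the second Nampt probe set (genotype, 0.0803) and the second Afmid probe set (difference of effects, 0.0694), the TCDD calls of Nadk2, Mat1a and Sirt3, the genotype calls of Tk1, Nadk, Mat1a and Ahcy, and the difference of effects of Slc16a10 (adjusted p = 0.150). No called value changed sign under any setting run.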
